A study of Danio rerio with 4 samples.

Results

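The paired-box (Pax) genes encode transcription factors that bind DNA through a shared paired domain, and many also carry a homeodomain. They were taken from the gene table of the study by symbol: pax1a, pax1b, pax9, pax2a, pax3a, pax5, pax6a, pax6b, pax7a and pax8, 10 of the 32538 rows of the table. Of these, 8 reached a mean of 1 FPKM and were tested, while pax1b and pax7a stayed below it. The table holds 4 further rows with a Pax symbol, pax2b, pax3b, pax4 and pax7b, which are given beside their relatives, and of which pax3b and pax7b were tested. The RNA came from zebrafish embryos with 6 somites (12 h after fertilization), in 2 libraries of wild-type controls and 2 libraries of embryos mutant for tbx1, carrying the vgo (van gogh) allele. The labels call it null. tbx1, a T-box gene, is expressed in the pharynx. The whole embryo was used, apart from tail tissue and some yolk taken off for genotyping. FPKM is a fragment count scaled by transcript length and by the size of the library, so levels can be roughly set side by side between genes.

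Pax genes act at many places in the vertebrate embryo, and the places named here are not specific to the stage sampled. In vertebrates the Pax1 and Pax9 genes mark the pharyngeal pouches, which are outpocketings of the foregut endoderm, and the sclerotome of the somites. The Pax2, Pax5 and Pax8 genes act at the midbrain-hindbrain boundary, in the otic placode and in the pronephros, the embryonic kidney. The Pax3 and Pax7 genes act at the neural plate border, in neural crest, the dorsal neural tube and the dermomyotome, and Pax6 in the eye, forebrain, hindbrain and spinal cord. Pax4 is known in the mouse for the endocrine pancreas.

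The depth of a library relative to control 1, read from the most frequent ratio of values among 2742 genes under 0.2 FPKM, was about 0.841 for control 2, 0.826 for mutant 1 and 0.726 for mutant 2. Ratios were rounded to 0.001 and 25, 14 and 24 genes fell at these values, so they are approximate. Read totals were not used here. The labels do not say whether a library was a pool of embryos, or whether controls were siblings of the mutants, so the spread behind each p-value is that between these samples and may be technical. In bulk RNA of a whole embryo, fewer cells of a type and less RNA per cell cannot be told apart. tbx1 itself stood at 9.08 FPKM in control 1, 9.14 in control 2, 4.91 in mutant 1 and 4.52 in mutant 2, with a difference of -0.88 on the log2(FPKM + 0.5) scale used for all differences here. The RNA was thus lower in both mutant libraries but still present (unadjusted p = 2.87e-04, adjusted p = 0.227 in limma).

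The family fell into a high and a low tier, separated by the widest gap in the order of levels. pax8, pax2a, pax6b, pax3a and pax6a made up the high tier, with means over the 4 libraries from 10.1 to 24.1 FPKM. Together they held between 90.5% and 92.6% of the summed Pax FPKM of a library. These shares include pax8, whose deposited values lie below the authors' own bounds in every library, as given below. The lowest value of pax6a, 9.69 FPKM, lay far above the highest value of pax5, 1.67 FPKM, and the ratio of their means was 7.91. Below that gap, pax5, pax3b, pax9, pax7b and pax1a had means between 1.07 and 1.28 FPKM, and the ranges of all neighbours in that order overlapped. pax1b, pax2b, pax7a and pax4 followed at means of 0.582, 0.396, 0.326 and 0.260 FPKM. In the high tier, the ranges of pax8 and pax2a overlapped, as did those of pax6b and pax3a and those of pax3a and pax6a. The ranges of pax2a and pax6b did not, with a lowest pax2a value of 19.2 FPKM and a highest pax6b value of 14.0 FPKM.

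**Figure D1:**
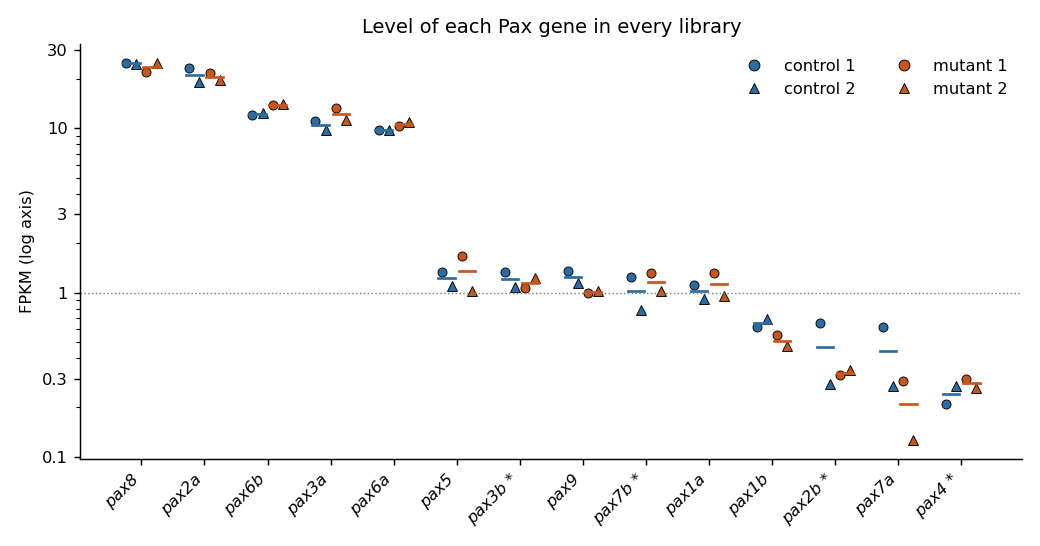
FPKM of each Pax gene on a log axis, with 1 symbol per library and a bar at each group mean (n = 2 libraries a group). Genes marked with * are the further Pax rows of the table, and the dotted line is the minimum mean of 1 FPKM for testing. The 5 genes on the left sit at 9.69 FPKM or higher in every library, and all others lie at 1.67 FPKM or lower.

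No tested Pax gene passed the threshold between the genotypes. Of the 8 listed genes tested, 0 passed an adjusted p of 0.05 in limma, and 0 had an unadjusted p under 0.05. The background over the 13448 genes tested was 0.0669% at the adjusted threshold (9 genes, all at loci of 70 to 143 bp) and 1.99% at the unadjusted one, with 1.08% higher and 0.907% lower in the mutants. With pax3b and pax7b the count was again 0 of 10 at both thresholds. All 10 differences lay within 0.3 on the log2 scale, as did 94.3% of all genes tested. Of the 8 listed genes, 5 had a higher mean log2 value in the mutants and 3 a lower one, and their median difference was 0.090, beside a median of 0.017 and 57.2% higher over all genes tested. The values of the mutants did not overlap those of the controls for 4 of the 8, pax6b, pax3a and pax6a with higher mutant values and pax9 with lower ones. Over all genes tested, groups without overlap made up 24.8%, namely 15.6% with higher and 9.14% with lower mutant values. With so few members, this count is a description. Permuting 4 libraries in an exact test gives no p below 0.333, so each p below rests on the spread that limma pools over genes.

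**Figure D2:**
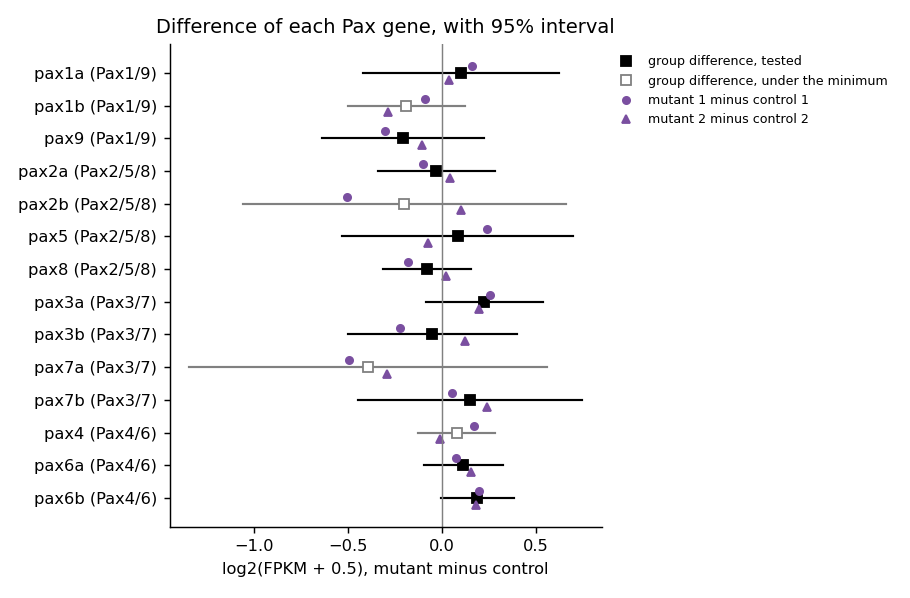
Difference between mutants and controls in log2(FPKM + 0.5) for each Pax gene, grouped by subfamily, with the 95% interval from limma as a line. Filled squares are genes in the test (2 libraries a group), open squares are genes under the minimum, fitted without a minimum, and small symbols are the differences of libraries with the same number. Every interval spans 0, and both small symbols lie on 1 side of 0 for 8 genes, the exceptions being pax2a, pax2b, pax3b, pax4, pax5 and pax8.

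The pouch genes pax9, pax1a and pax1b were the members most directly tied to the pharynx, the tissue for which tbx1 is best known. They are named for their known place of expression, and whole-embryo RNA does not show which tissue they were read from. pax9 (ENSDARG00000053829, Zv9 chromosome 17 from 38403986 to 38458583) is expressed in pharyngeal pouch endoderm and sclerotome of vertebrate embryos. It was measured at 1.35 FPKM in control 1, 1.14 in control 2, 0.998 in mutant 1 and 1.02 in mutant 2. Both mutant values were below both control values, by 0.118 FPKM at the nearest. The means were 1.25 ± 0.154 and 1.01 ± 0.0143 FPKM (SD, n = 2 each), and the mutant mean was 0.810 of the control mean. The log2 difference was -0.21 (SE 0.164, 95% interval -0.64 to 0.22, unadjusted p = 0.264, adjusted p = 1.0 in limma). As a ratio of FPKM values with the constant of the log2 scale added, that interval runs from 0.643 to 1.17. For a gene this low, such a ratio understates the change in FPKM itself and is not comparable with the ratio of the means. These libraries leave both a rise and a loss possible, and in FPKM that loss could be larger than the lower limit shows. The difference was -0.12 without control 1 and -0.30 without control 2. The authors' own 95% bounds for pax9 ran from 0.850 to 1.65 FPKM in the controls and from 0.722 to 1.32 FPKM in the mutants, and all 4 pairs of a control and a mutant interval overlapped.

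The pax9 locus as listed is 54.6 kb long and contains the whole of 2 other tested rows, nkx2.9 and nkx2.1b, both Nkx2 homeobox genes. These overlapping rows were picked out after their values were seen. nkx2.9, a gene of the ventral neural tube, was listed at 12.1 FPKM in control 1, 11.7 in control 2, 8.87 in mutant 1 and 9.73 in mutant 2. Its log2 difference was -0.34 (SE 0.0868, 95% interval -0.57 to -0.11, unadjusted p = 0.0126, adjusted p = 1.0 in limma), and 0 of its 4 values lay inside their own deposited interval. nkx2.1b was at 4.88 FPKM in control 1, 4.33 in control 2, 3.96 in mutant 1 and 6.27 in mutant 2, so its groups overlapped. In the RefSeq gene table of the GRCz12tu assembly, pax9 and nkx2.9 are neighbours whose loci do not overlap. The labels do not state that strand was used in counting. How reads were divided among the 3 genes within this locus is not stated in the labels, and its part in the pax9 values was not tested.

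The paralogs pax1a and pax1b, duplicates of a single ancestral Pax1 gene, had differences of opposite sign. pax1a did not pass the test, and pax1b, below the minimum mean, was not in it. pax1a (ENSDARG00000008203, chromosome 17 from 42869957 to 42873985) stood at 1.12 FPKM in control 1, 0.912 in control 2, 1.31 in mutant 1 and 0.949 in mutant 2, and its groups overlapped. Its log2 difference was 0.10 (SE 0.198, 95% interval -0.42 to 0.62, unadjusted p = 0.641, adjusted p = 1.0 in limma). The sign turned without control 2 (-2.04e-04) and without mutant 1 (-0.06). pax1b (ENSDARG00000073814, chromosome 20 from 49182905 to 49189317) stood at 0.619 FPKM in control 1, 0.687 in control 2, 0.550 in mutant 1 and 0.471 in mutant 2. These groups did not overlap, and the ratio of the means was 0.782. In the fit with no minimum its log2 difference was -0.19 (SE 0.0902, unadjusted p = 0.137, adjusted p = 1.0 in limma). The ratio of pax1a to pax1b within a library was 1.81 and 1.33 in the controls and 2.38 and 2.02 in the mutants. The sum of pax1a, pax1b and pax9 was at 3.09 FPKM in control 1, 2.74 in control 2, 2.86 in mutant 1 and 2.44 in mutant 2, so the subfamily as a whole overlapped between the genotypes.

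The otic, boundary and kidney genes pax8, pax2a and pax5 showed no separation of the groups. pax8 (ENSDARG00000015879, chromosome 5 from 75545966 to 75551160), one of the earliest genes of the otic placode and also expressed in the pronephros, was the Pax gene of highest mean. It was measured at 24.9 FPKM in control 1, 24.7 in control 2, 21.9 in mutant 1 and 25.0 in mutant 2. Mutant 1 was the lowest library, and mutant 2 lay just above both controls. The log2 difference was -0.08 (SE 0.0893, 95% interval -0.32 to 0.15, unadjusted p = 0.405, adjusted p = 1.0 in limma), and it was 0.01 without mutant 1.

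The deposited pax8 values stood outside their own bounds. In control 1 a value of 24.9 FPKM came with bounds of 28.2 and 31.7 FPKM, and in mutant 1 a value of 21.9 FPKM came with bounds of 25.7 and 29.2 FPKM. The value was below its lower bound in all 4 libraries. Such a row is uncommon but not unique, since 454 of the genes tested, 3.38%, were below their bounds in all 4 libraries, and 22.8% were outside them on either side. For each of the other 13 Pax rows, 4 of 4 values were inside their bounds. By its bounds pax8 would stand above pax2a in every library, since the lowest pax8 bound, 25.7 FPKM, exceeds the highest pax2a bound, 24.6 FPKM, whereas the values of the 2 genes overlap. pax8 is also the only Pax row on chromosome 5, which carries tbx1, and it lies 58.6 Mb from that gene. On this chromosome 65 of 779 genes tested had an unadjusted p under 0.05 (8.34%, against 1.59% elsewhere), and within 5 Mb of pax8 it was 3 of 62 (4.84%). The part of the chromosome in the pax8 values was not tested.

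pax2a (ENSDARG00000028148, chromosome 13 from 29994438 to 30027366), the gene of the zebrafish mutant no isthmus, is needed for the midbrain-hindbrain boundary and is expressed in the otic placode, optic stalk and pronephros. It stood at 23.2 FPKM in control 1, 19.2 in control 2, 21.6 in mutant 1 and 19.7 in mutant 2. Both mutant values lay between the 2 control values. The log2 difference was -0.03 (SE 0.118, 95% interval -0.34 to 0.28, unadjusted p = 0.796, adjusted p = 1.0 in limma), and its sign turned without control 1 (0.10) or without mutant 2 (0.03). Its duplicate pax2b stood at 0.656 FPKM in control 1 and between 0.280 and 0.336 FPKM in the other 3 libraries, so pax2a was between 35.4 and 68.6 times as high as pax2b. pax5 (ENSDARG00000037383, chromosome 1 from 20560787 to 20650521), a later gene of the same boundary, stood at 1.34 FPKM in control 1, 1.10 in control 2, 1.67 in mutant 1 and 1.02 in mutant 2. Here the mutants held both the highest and the lowest value. The log2 difference of 0.08 had a 95% interval from -0.53 to 0.70 (unadjusted p = 0.743, adjusted p = 1.0 in limma), and it was -0.02 without control 2 and -0.18 without mutant 1. pax2a was between 12.9 and 19.4 times as high as pax5.

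The neural crest and neural tube gene pax3a was higher in both mutant libraries than in both controls, without passing the test. pax3a (ENSDARG00000010192, chromosome 2 from 47581096 to 47641979) is expressed at the neural plate border and in the dorsal neural tube. It stood at 11.0 FPKM in control 1, 9.76 in control 2, 13.2 in mutant 1 and 11.2 in mutant 2. The lower mutant value exceeded the higher control value by 0.202 FPKM. The means were 10.4 ± 0.893 and 12.2 ± 1.41 FPKM (SD, n = 2 each), with a mutant to control ratio of 1.18. The log2 difference was 0.22 (SE 0.118, 95% interval -0.09 to 0.53, unadjusted p = 0.124, adjusted p = 1.0 in limma). Between libraries with the same number the difference was 0.25 and 0.19. Of the 4 pairs of a control and a mutant interval in the authors' bounds, 2 overlapped. The difference was 0.11 without mutant 1 and 0.34 without mutant 2.

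The other genes of the Pax3 and Pax7 subfamily were low, and pax7a and pax7b were uneven between libraries. pax3b stood at 1.33 FPKM in control 1, 1.09 in control 2, 1.07 in mutant 1 and 1.22 in mutant 2, a log2 difference of -0.05, which was 0.05 without control 1 and 0.02 without mutant 1. pax3a was between 8.28 and 12.4 times as high as pax3b. pax7a (ENSDARG00000005173, chromosome 11 from 42366286 to 42371484), expressed in neural crest and dermomyotome, stood at 0.616 FPKM in control 1, 0.269 in control 2, 0.291 in mutant 1 and 0.127 in mutant 2. The authors' lower bound in mutant 2 was 0, so at this depth pax7a was barely detectable there. In the fit with no minimum its log2 difference was -0.40, with a wide 95% interval from -1.35 to 0.55 (unadjusted p = 0.259, adjusted p = 1.0 in limma). pax7b stood at 1.25 FPKM in control 1, 0.787 in control 2, 1.31 in mutant 1 and 1.02 in mutant 2, a log2 difference of 0.15 that was -0.07 without control 2. The ratio of pax7b to pax7a ran from 2.02 in control 1 to 8.03 in mutant 2. For pax3b and pax7b the unadjusted p was 0.770 and 0.550, and the adjusted p 1.0 for both in limma.

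The eye genes pax6a and pax6b were higher in both mutant libraries, by small amounts. pax6b (ENSDARG00000045936, chromosome 7 from 16636711 to 16662410) is expressed in the eye field, forebrain, hindbrain and pancreas. It stood at 12.0 FPKM in control 1, 12.3 in control 2, 13.8 in mutant 1 and 14.0 in mutant 2. The groups were 1.47 FPKM apart at the nearest, and the 2 libraries within each group were close together. The means were 12.1 ± 0.230 and 13.9 ± 0.158 FPKM (SD, n = 2 each), with a mutant to control ratio of 1.14. The log2 difference of 0.19 (SE 0.0737, 95% interval -0.01 to 0.38) had the lowest p of the Pax genes, 0.0563 unadjusted (adjusted p = 1.0 in limma). All 4 pairs of a control and a mutant interval in the authors' bounds overlapped.

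pax6a (ENSDARG00000045045, chromosome 25 from 15289717 to 15409410), the duplicate of pax6b with a similar pattern in eye and neural tube, stood at 9.78 FPKM in control 1, 9.69 in control 2, 10.3 in mutant 1 and 10.8 in mutant 2. Its groups were 0.512 FPKM apart at the nearest. The log2 difference was 0.11 (SE 0.0794, 95% interval -0.10 to 0.32, unadjusted p = 0.221, adjusted p = 1.0 in limma). The ratio of pax6b to pax6a was 1.23 and 1.27 in the controls and 1.34 and 1.29 in the mutants, the steadiest ratio of the paralog pairs compared. pax4 stood between 0.210 and 0.296 FPKM, with overlapping groups.

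The nearest patterns to that of pax6b belonged to C18H19orf47, fam160b1 and hsp90b1, an endoplasmic reticulum chaperone gene. Likeness was the Euclidean distance of the centred log2 values over the 4 libraries, and the distances were 0.0202, 0.0219 and 0.0257. Of 8615 genes with a mean of at least 5 FPKM, 187 lay within a distance of 0.1, so with 4 libraries this pattern is not particular to pax6b.

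**Figure D3:**
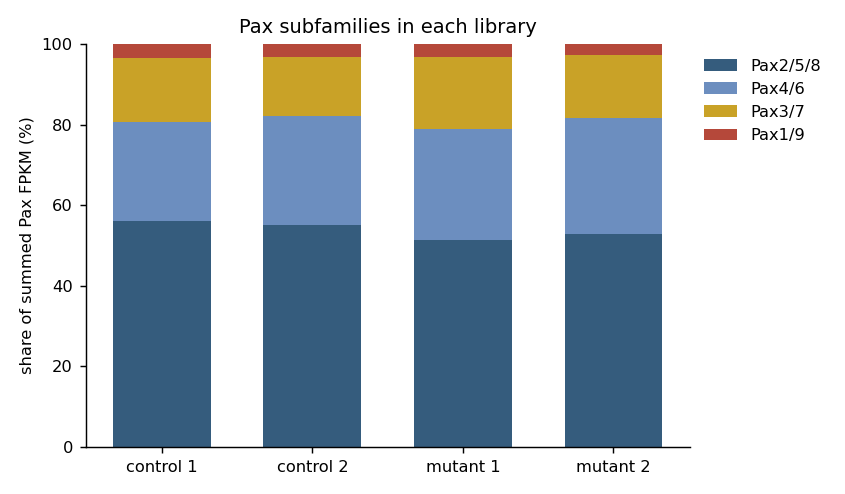
Share of each Pax subfamily in the summed FPKM of all 14 Pax rows, in percent, with 1 stacked bar per library. Pax2/5/8 genes held between 51.3% and 56.1% of the sum, Pax4/6 genes between 24.6% and 28.8%, Pax3/7 genes between 14.5% and 17.9%, and Pax1/9 genes between 2.80% and 3.46%. The sums use the deposited pax8 values, which lie below the authors' own bounds in every library.

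The summed Pax FPKM was 89.4 and 82.1 in the controls and 88.6 and 87.1 in the mutants, so its total overlapped between the genotypes. The sum of the Pax2, Pax5 and Pax8 genes was at 50.1 FPKM in control 1, 45.2 in control 2, 45.5 in mutant 1 and 46.0 in mutant 2. The sum of the Pax3 and Pax7 genes was at 14.2 FPKM in control 1, 11.9 in control 2, 15.9 in mutant 1 and 13.6 in mutant 2. Of the 4 subfamily sums, that of pax4, pax6a and pax6b alone had groups without overlap, at 22.0 FPKM in control 1, 22.3 in control 2, 24.4 in mutant 1 and 25.1 in mutant 2, a description that follows from pax6a and pax6b themselves.

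For several members the libraries of 1 genotype lay further apart than the genotypes. pax2a, pax3a, pax5, pax7b and pax1a, 5 of the 10 tested Pax rows, were lower in library 2 than in library 1 of both genotypes, and 36.3% of all genes tested were. pax6b, 1 of 10, was higher in library 2 in both, as were 29.5% of all genes tested. For pax5 the difference of library 2 from library 1 was -0.20 on the log2 scale in the controls and -0.52 in the mutants, against a genotype difference of 0.08. For pax7b it was -0.44 and -0.25, against 0.15. The untested pax7a had -0.54 and -0.34. No label says what the number stands for.

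The nearest tested genes along the chromosome are given as local context for the 10 tested Pax rows. Their gaps to the Pax loci ran from 2.49 kb (si:ch211-134c9.2 and pax5) to 329 kb (emc1 and pax7b). Genes that were not tested may lie between. Beside pax6b lie rcn1 (a log2 difference of -0.04) and elp4 (-0.08), and beside pax6a lie dnajc24 (0.04) and wt1a (0.15), a pronephros and gonad gene. pax1a has nkx2.2a (0.15), a ventral neural tube gene, at 55.7 kb and QPCT (0.05) on the other side. slc25a21 (0.13) and mbip (-0.02) flank pax9, acsl3b (0.04) and ap1s3b (-0.10) flank pax3a, and acpl2 (0.02) and SGPP2 (0.09) flank pax3b. In the RefSeq gene table, sgpp2 overlaps pax3b, dnajc24 overlaps pax6a and kcnab2b overlaps pax7b. The Zv9 loci of sgpp2 and dnajc24 used here do not overlap these Pax genes, and no other row overlaps the Zv9 locus of pax7b. For pax1b, which was not tested, RefSeq lists gfus.3 and nkx2.2b as overlapping. The Zv9 locus of nkx2.2b used here does not overlap that of pax1b. The part of the RefSeq overlaps in the values was not tested. The T-box gene tbx3 (-0.01) and zgc:77391 (-0.14) lie beside pax8, si:ch211-134c9.2 (-0.05) and melk (0.04) beside pax5, and ERRFI1 (1 of 2) (-0.06) and emc1 (0.08) beside pax7b. pax2a lies between CHST3 (2 of 2), a sulfotransferase gene listed at 1.73 FPKM in control 1, 1.75 in control 2, 2.74 in mutant 1 and 2.44 in mutant 2, and cuedc2 (-0.10). CHST3 (2 of 2), at 250.0 kb from pax2a, had the lowest p of these neighbours (unadjusted p = 0.0175, adjusted p = 1.0 in limma). It alone among them had an unadjusted p under 0.05 in limma, as did 1.99% of all genes tested.

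Genes of the places where Pax genes act were then counted, from 10 lists of 168 genes, of which 134 were tested. None passed the adjusted threshold in limma, and 2 had an unadjusted p under 0.05: tbx1, and olig3, a factor of the dorsal neural tube. Groups without overlap made up 26.1% of the 134, close to the 24.8% of all genes tested. The counts below are descriptions beside the median of 0.017 over all genes tested, 57.2% of which were higher in the mutants. Some genes are in several lists, such as sox10 and tfap2a in the otic and neural crest lists, so the counts are not independent of each other.

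Of 19 tested genes in the pharyngeal pouch endoderm list, which include tbx1 itself, 15 were lower in the mutants and 4 higher, with a median of -0.074. That median is the value of prdx5, at a mean of 360 FPKM in the controls. Lower values without overlap were seen for 7 and higher ones for 1, beside 9.14% and 15.6% of all genes tested. The 7 were tbx1, fgf3, cyp26c1, nkx2.7, gata6, foxa1 and prdx5. The 1 higher gene was foxa3 (a log2 difference of 0.04). Groups overlapped for the rest of the list, among them sox17 (-0.08), cxcr4a (-0.03), gata5 (-0.01) and foxa2 (-0.0045). The list is broad, and whole-embryo RNA does not show which tissue these genes were read from. Beside tbx1 the lowest p-values belonged to fgf3, a growth factor gene, at 8.21 FPKM in control 1, 8.63 in control 2, 7.35 in mutant 1 and 7.07 in mutant 2 (a log2 difference of -0.21, unadjusted p = 0.0595 in limma), and to cyp26c1, which degrades retinoic acid (-0.22). The 12 sclerotome genes split into 5 higher and 7 lower, with a median of -0.015, foxc1b at -0.25, foxc1a at -0.18 and twist1a at 0.14. Of 14 genes of the sine oculis, Eya and Dach families, which act in a network with Pax genes in eye and placodes, 11 were higher and 3 lower (median 0.056), with eya2 at -0.27, six4b at 0.15 and eya4 at 0.30.

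Of 20 neural crest and neural plate border genes, 19 were higher and 1 lower, with a median of 0.085. Higher values without overlap were seen for 7, among them zic2a (0.15), twist1a (0.14) and tfap2c (0.14), early factors of the border and crest, beside 15.6% of all genes tested. All 16 eye field genes had a higher mean log2 value in the mutants, with a median of 0.072, but 1 of the 16 had groups without overlap. The genes of lowest p in this list in limma were lhx2b at 0.30, mab21l1 at 0.27 and mab21l2 at 0.16, with overlapping groups. Below the list median lay rx2 (0.0017), six7 (0.025), rx3 (0.027), rx1 (0.035) and six3b (0.059), among others. The eye field median was 0.256 without control 1, 0.186 without mutant 2, close to 0 without control 2 (3.32e-04) and -0.031 without mutant 1, so its direction rests on single libraries. The neural crest median ranged from 0.010 without mutant 1 to 0.174 without mutant 2, and the pouch endoderm median from -0.113 without control 2 to -0.052 without control 1, each with 1 sign throughout. Without mutant 1 the median over all genes tested was 0.014, so the neural crest median was not above it there.

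The midbrain-hindbrain boundary list had 15 of 18 genes higher (median 0.051), with gbx1 at 0.25, il17rd at -0.14 and otx1b at 0.11. The otic list had 12 of 17 higher (median 0.032), with fgf10b at 0.23, irx7 at 0.11 and, again, fgf3. Like tbx1, fgf10b lies on chromosome 5, and the part of the chromosome in its values was not tested. The pronephros list had 6 of 11 higher (median 0.030), with irx3b at 0.13, mecom at 0.29 and wt1a at 0.15. The somite list had 7 of 14 higher (median -0.012), with myog at 0.19, smyhc1 at 0.24 and myf5 at -0.17. The neural tube list had 11 of 18 higher (median 0.013), with irx3a at -0.16 and nkx2.2a at 0.15. In that list, olig3 was at 0.0686 and 0.259 FPKM in the controls against 2.19 and 2.65 FPKM in the mutants (unadjusted p = 3.22e-04, adjusted p = 0.241 in limma). The olig3 row spans only 372 bp and its control values are close to the floor, so the size of its change is uncertain. Several of the list medians turned sign when 1 library was left out. Without control 1 the median was -0.017 for the midbrain-hindbrain boundary, 0.0081 for the somite and 0.019 for the sclerotome list. Without control 2 it was -0.057 for the otic, -0.064 for the pronephros, -0.0033 for the neural tube and -0.039 for the sine oculis, Eya and Dach list. Without mutant 1 it was -0.082 for the otic and 0.015 for the somite list.

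**Figure D4:**
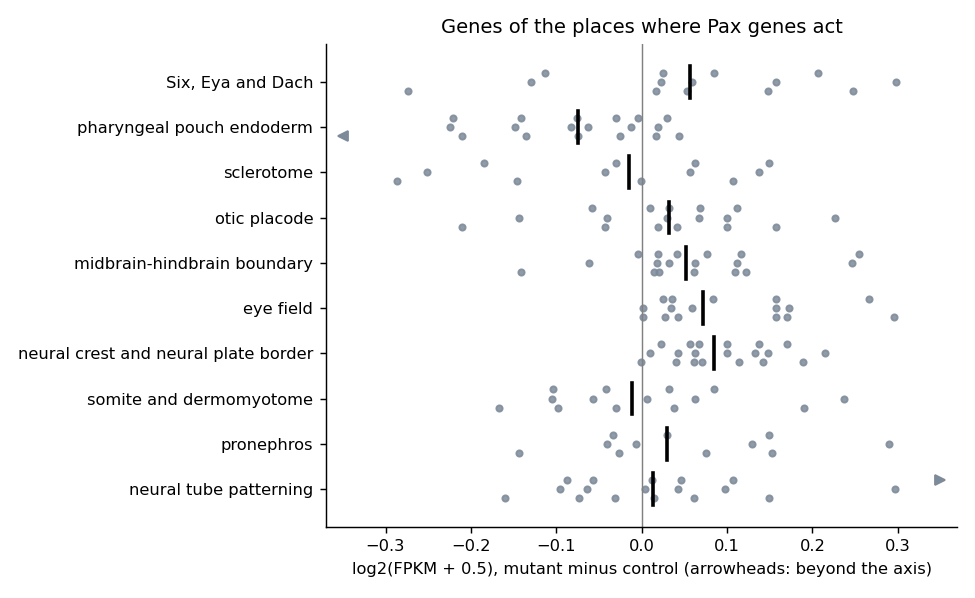
Difference between mutants and controls in log2(FPKM + 0.5) for each tested gene of the 10 lists, with 1 point per gene (2 libraries a group) and a black bar at the list median. The arrowheads are tbx1 on the left and olig3 on the right. The medians lie between -0.074 for pouch endoderm and 0.085 for neural crest and border.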

How the data were processed

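Per the labels' protocols, libraries came from polyA-enriched RNA (TruSeq) and were read in paired ends. Cuffdiff 2.0.2, Cufflinks 2.1.1 and TopHat2 2.0.8 are named with the Zv9 (danRer7) build, without their roles, per the submitters' processing notes. The authors deposited 1 FPKM value for each gene in each library, with 95% bounds and an estimate status (columns titled RPKM per the file headers, with a stray FPKM header line). Of 32538 rows, 138 without an OK status in all libraries and those with a mean under 1 FPKM were left out, which left 13448. log2(FPKM + 0.5), which understates changes of low genes, was tested with limma 3.58.1 in R 4.3.3 (genotype, trended empirical Bayes, two-sided, Benjamini-Hochberg over all genes tested, 4.66 degrees of freedom). Of 2742 genes under 0.2 FPKM with values above 0 in every library, 21.0% had values within 2% of whole multiples, so whole reads were not recovered and count models were not run. The Pax genes and lists were chosen with earlier results of these data known. List genes were matched by table symbol (160) or current symbol of the gene ID (2), and 6 were not matched. Named genes were the Pax rows, the 3 tested genes of lowest p per list, the nearest tested genes on each side, the 3 most like the Pax gene of lowest p, and tbx1. Alternatives were other pseudocounts (0.1, 1) and minimums (none, 5 FPKM), quantile and median-ratio scaling, the replicate number as a block, loci of at least 300 bp, each library left out, no trend and robust empirical Bayes. Figures were drawn with matplotlib 3.10.9.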

Additional observations from a re-analysis of the deposited data

How the results depend on the processing

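The number of listed Pax genes past the adjusted threshold was 0 under every alternative run, with the lowest adjusted p of any Pax row at 0.794, for the fit with no minimum. There, pax6b had an unadjusted p of 0.00759, and with the minimum mean raised to 5 FPKM 0.0416 (3.98% and 1.72% of all genes in these fits were under 0.05). The count over all genes, 9, was 1 with no minimum, 16 with robust empirical Bayes and between 28 and 39 with 1 library left out, and within 1.5 times of 9 otherwise. The 9 were all at loci of 70 to 143 bp, and the 7 called among loci of at least 300 bp shared 0 genes with them. With the replicate number as a block it was 9, of which 8 were shared with the fit without it, and 2 of 10 Pax rows had an unadjusted p under 0.05, pax3a (0.0262) and pax6b (0.0363), as did 4.54% of all genes in that fit. Libraries with the same number deviated from their group means in the same direction for 65.8% of genes (Spearman 0.415 and Pearson -0.00510 across genes, which are not independent replicates, and Pearson 0.347 at loci of at least 300 bp). This is a hint from the data that the number may mark something shared, but no label says so and there are only 2 pairs, so the number was not taken as a pairing. With 1 library left out, log2 differences that turned sign ranged from -0.173 to 0.010 for pax8, -0.167 to 0.102 for pax2a, -0.178 to 0.341 for pax5, -0.156 to 0.050 for pax3b, -0.074 to 0.366 for pax7b and -0.061 to 0.258 for pax1a. Among other genes they ranged from -0.019 to 0.335 for mab21l2, -0.081 to 0.556 for smyhc1, -0.426 to 0.090 for myf5, -0.017 to 0.596 for mecom, -0.306 to 0.400 for QPCT, -0.190 to 0.167 for tbx3, -0.121 to 0.157 for acpl2, -0.112 to 0.302 for SGPP2, -0.173 to 0.066 for si:ch211-134c9.2, -0.075 to 0.164 for dnajc24, -0.082 to 0.0054 for rcn1, -0.162 to 0.0087 for elp4, -0.279 to 0.154 for ERRFI1 (1 of 2) and -0.193 to 0.410 for nkx2.1b. After quantile normalization QPCT was at -0.0072 and acpl2 at -0.022. After median-ratio rescaling the neural tube list median was -0.007. The cause was not tested. pax6a, pax6b, pax3a and pax9 kept their direction under every alternative in which they were tested. The authors' bounds lay on average 22.0% to 29.2% from the pax9 value, against 8.83% to 9.57% for pax6b.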
